A study of Homo sapiens with 48 samples.

Results

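The comparison was between xenograft tumors of 2 human squamous carcinoma lines, SCC-13 (SCC13), from skin, and A-431 (A431), an epidermoid carcinoma line known for its many copies of the EGFR gene. All 16 SCC13 tumors and all 8 A431 tumors were used, 24 of the 48 samples in the series. Both lines carried the Cas9 nuclease, selected with blasticidin, and then received a pooled lentiviral guide RNA library against 334 genes with 136 non-targeting guides, as the series design gives it. Infection was at a low multiplicity with puromycin selection, and part of the cells was kept as the initial time point (2 initial samples per line). The others were injected with Matrigel into the rear flanks of mice, and tumors were collected about 2 months later. A431 tumors grew in SHO mice and SCC13 tumors in NOD.Cg-Prkdcscid Il2rgtm1Wjl/SzJ mice, which lack T, B and natural killer cells, so that line and mouse strain cannot be told apart in any difference given here. Whether some tumors came from a single mouse is unknown, and p-values reflect no more than the spread among the tumors given. The screen measured guides in DNA, so the lines could not be checked against marker expression.

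In a pooled knockout screen each cell carries a guide that disables 1 gene, and the guides are counted before and after growth. A knockout that slows growth or survival is lost from the population, and a knockout that removes a brake becomes more common. Squamous carcinoma cells resemble keratinocytes of the basal layer: they depend on EGF receptor signalling, on integrin attachment to the basement membrane and on the transcription factor p63, while cell-cycle inhibitors and the differentiation program restrain their division.

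The deposited values are log fold changes per gene for 327 genes, set against the non-targeting guides, with a log base that is not stated. Values are therefore in log units, and no folds are given. A negative value is read as loss of the knockout. Each tumor was centred on its median gene, and tumors are numbered in the order of the value columns. SCC13 tumors were far more spread: the SD over genes was 0.42 to 1.34 in A431 (median 0.89) and 1.89 to 2.87 in SCC13 (median 2.30), and 319 of 327 genes varied more between SCC13 tumors than between A431 tumors. SCC13 values also had a floor. In 101 of 120 pairs of SCC13 tumors, at least 4 genes differed by exactly 1 amount, and such values are treated as bounds. From 8 genes (tumor 8) to 140 genes (tumor 7) were at the floor in an SCC13 tumor, 26.1% of all SCC13 values, and no pair of the 28 A431 pairs showed one. The floor lies at a different height for each gene, and in 8 genes the floor values averaged above 0. A loss of those knockouts could therefore not have been seen in some of the tumors at the floor.

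**Figure D1:**
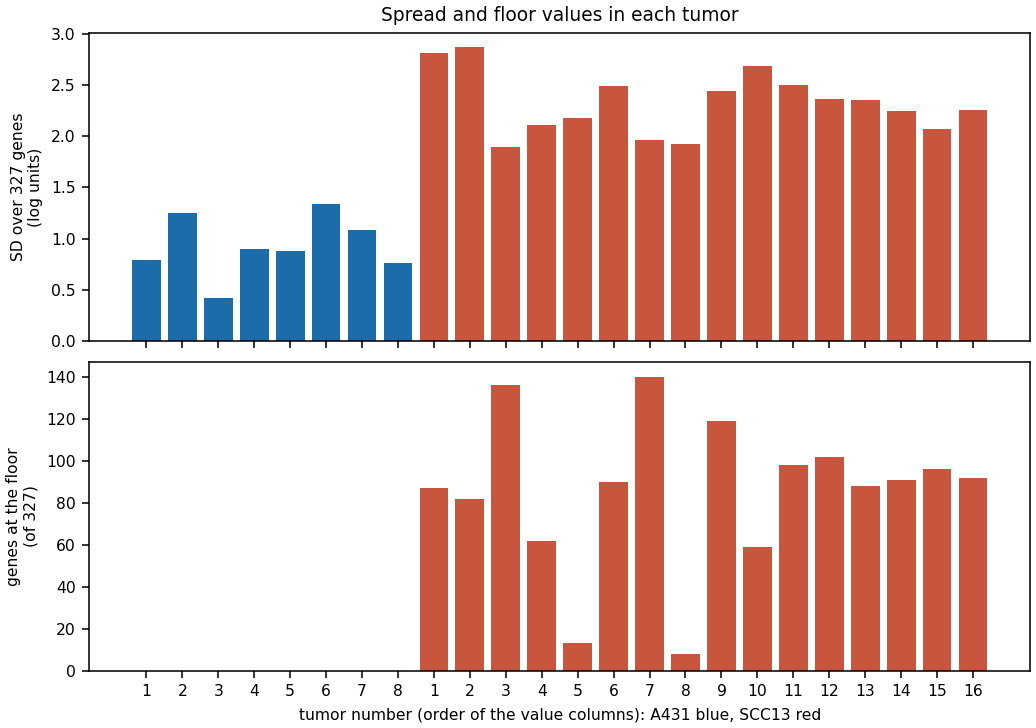
Bars give, for each of the 8 A431 tumors (blue) and 16 SCC13 tumors (red), the SD over 327 genes in log units (upper panel) and the number of genes at the floor (lower panel). Every SCC13 tumor had a larger SD than every A431 tumor, and floor values, 8 to 140 genes per tumor, were found in SCC13.

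Compared with A431 tumors, SCC13 tumors gained cells without CDKN2B, the gene of the cell-cycle inhibitor p15INK4B, by 7.25 log units more, the largest difference of the screen. Knockouts of the AP-1 subunit JUNB, the mRNA-binding proteins PABPC1 and YBX1, the glucose transporter SLC2A1, actin (ACTB) and the replication helicase subunits MCM3 and MCM7 stood lower in SCC13, with differences of -3.02 to -2.10 log units. Knockouts of keratinocyte differentiation genes (DEGS1, DEFB1, KRT1), of the C/EBP factors CEBPA and CEBPD and of the peptide hormone ADM stood higher, by 2.38 to 4.15. By limma on the centred values, with Benjamini-Hochberg adjustment at 0.05, 25 of 327 genes were lower in SCC13 (7.65%) and 26 were higher (7.95%). An exact permutation test over all 735471 splits of the tumors called 23 lower and 20 higher, and with a spread of its own for each line the fit called 46 lower and 51 higher; every gene called by the shared spread was among them.

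The split between lower and higher depended on the zero point and on the floor. On the deposited scale, where the zero is the non-targeting guides, every difference was shifted by -1.34, the median gene lay at -1.29 in place of 0.05, and limma called 102 genes lower and 3 higher (CDKN2B, ADM and DEGS1). All 25 lower genes were among the 102, and the 26 higher genes all kept a positive difference. Without values at the floor 11 were lower and 34 higher, and with the 4 SCC13 tumors that had at most 25% of their genes at the floor (tumors 4, 5, 8 and 10) 53 were lower and 16 higher. Floor values weighed on one side: 21 of the 25 lower genes were at the floor in more than 8 of 16 SCC13 tumors and 0 were never there, whereas 23 of the 26 higher genes were never at the floor. Of all 327 genes, 58 were at the floor in more than 8 SCC13 tumors and 105 were never there. A floor value bounds a loss from one side, so the lower genes' SCC13 means are upper limits. "Lower" and "higher" below mean relative to the median gene.

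**Figure D2:**
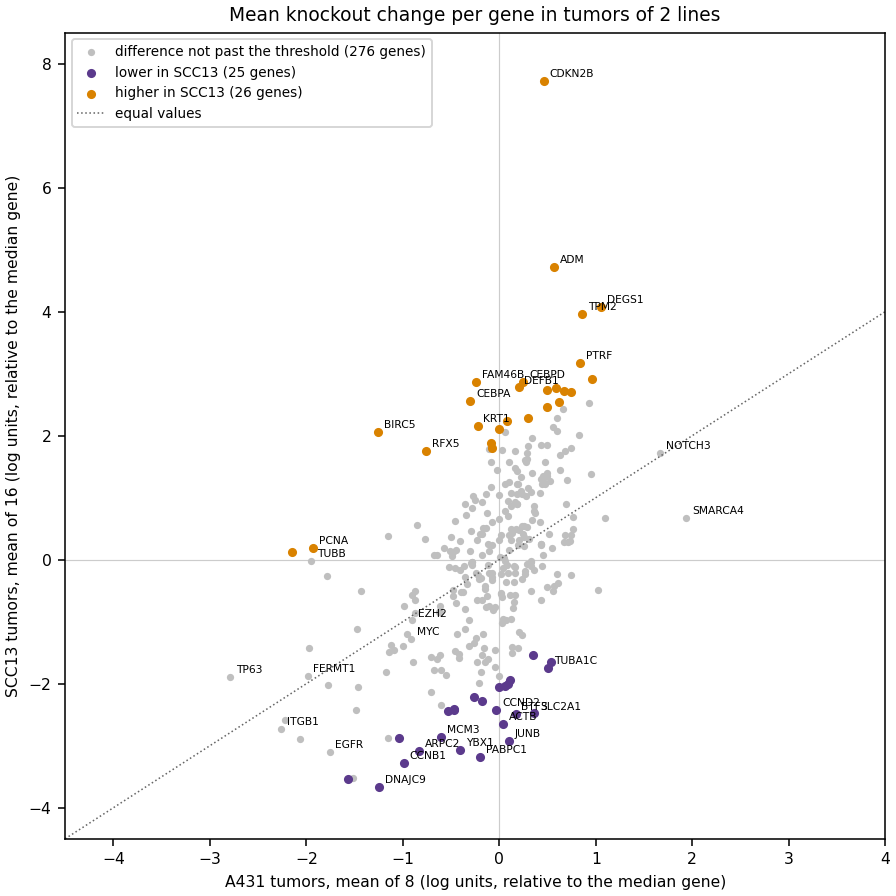
Each point is a gene, with its mean over 8 A431 tumors on the horizontal axis and over 16 SCC13 tumors on the vertical axis, both in log units relative to the median gene; the axes differ in scale, and the dotted line marks equal values. CDKN2B stands alone at 0.46 and 7.72, the 25 lower genes (purple) lie mostly near 0 in A431, and BIRC5 and RFX5 lie on opposite sides of 0.

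Calls by sign within each line came from limma of the centred values against 0, with Benjamini-Hochberg adjustment at 0.05. In A431, 39 genes fell (11.9%) and 26 rose (7.95%), and in SCC13 78 fell (23.9%) and 77 rose (23.5%). "Fell" and "rose" are thus also relative to the median gene. On the deposited scale the median gene of a tumor lay at a median of -0.23 in A431 and -1.77 in SCC13. A rise in SCC13 therefore need not be a gain over the non-targeting guides. Of the 25 lower genes, all 25 fell in SCC13, and 5 of them also fell in A431. Of the 26 higher genes, 24 rose in SCC13, and 7 of them also rose in A431. The other 2, PCNA and CD151, fell in A431 and did not pass the test in SCC13. No gene rose in A431 and fell in SCC13, and 2 genes passed with a negative mean in A431 and a positive one in SCC13 (BIRC5 and RFX5). For BIRC5 most SCC13 values were at the floor, so its positive mean there does not show a gain.

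The size of a difference moved with the spread of the tumors. When each tumor was divided by its own SD over genes, 9 of the 25 lower and 11 of the 26 higher genes passed the test on the same side. Of the 12 called genes that had moved the same way in both lines, 1 (ADM) passed in SD units, and of the other 39, 19 did. The calls for DNAJC9, DNMT1, PKM, CCNB1 and ARPC2, which fell in both lines, were among those that did not pass.

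CDKN2B encodes p15INK4B, which blocks the kinases CDK4 and CDK6 before S phase. Its knockout ranged over A431 tumors from -0.40 to 1.54 log units with a median of 0.59, and over SCC13 tumors from 2.74 to 11.42 with a median of 7.77. The groups did not overlap, which held for 2 of the 327 genes in that direction (0.612%; the other was TNFRSF12A) and for 0 (0.0%) in the opposite one. CDKN2B was the top gene in 12 of 16 SCC13 tumors and among the top 7 in all 16, whereas in A431 tumors its place from the top ran from 6 to 269. The means were 0.46 ± 0.66 (SD, n = 8) and 7.72 ± 2.73 (n = 16), a difference of 7.25 with a 95% interval of 5.65 to 8.86 (limma adjusted p = 2.66e-10). It stayed past the threshold on the deposited scale (5.91), in SD units (2.85) and with the 4 SCC13 tumors of few floor values (4.19). In the 10 tumors of the tongue line CAL27, which were not in the test, the mean was 1.45 ± 1.05.

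The other genes of the G1 and E2F axis, which takes cells from G1 into S phase, did not share one direction. Of 10 measured, CDKN2B was higher, CCND2 was lower and 8 did not pass, with a median difference of 0.19 in log units, beside 0.05 over all genes, and of -0.26 in SD units, beside 0.07. CCND2 encodes cyclin D2, a partner of the kinases that p15INK4B inhibits. Its knockout stood between -0.42 and 0.39 in A431 tumors and between -4.55 and 0.80 in SCC13, 13 of 16 below every A431 tumor. The difference was -2.39 ± 0.64 (SE; adjusted p = 0.0089). MYBL2 and CKS1B, a transcription factor and a kinase subunit of the cycle, differed by -1.62 and -1.50 without passing (adjusted p = 0.063 and 0.064). Both passed on the deposited scale (-2.97 and -2.84, limma adjusted p = 0.00038 and 0.00094).

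JUNB, a subunit of the AP-1 transcription factor, had the most negative difference. In A431 tumors its knockout stood between -0.96 and 0.55 with a median of 0.33, and in SCC13 between -4.94 and 0.10 with a median of -2.73. All but 1 SCC13 tumor, tumor 3, lay below every A431 tumor, and 14 of the 16 values were at the floor. The difference was -3.02, with a 95% interval of -4.25 to -1.79 (limma adjusted p = 0.00071), and it passed on the deposited scale, in SD units and on ranks. In 1 A431 tumor the value of JUNB equalled that of another gene to 6 decimals; without the genes that shared values, 23 genes were lower. Of 9 AP-1 and immediate early genes, 3 were lower (JUNB, FOS and FOSL1) and 0 higher, beside 7.65% and 7.95% of all genes. The median difference was -0.33 in log units and -0.02 in SD units, where JUNB was the 1 gene called. FOS, a dimer partner of JUN proteins, differed by -1.95 and FOSL1, which encodes FRA1, by -1.94. The FOS call was lost when any of 7 tumors was left out (highest adjusted p = 0.08, without A431 tumor 4) and the FOSL1 call for any of 10 (0.078, without A431 tumor 3). JUND, another partner, differed by 1.30 and did not pass (adjusted p = 0.26).

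Genes of DNA replication and repair stood lower in SCC13 for 4 of 9 measured members and higher for 1, PCNA, with a median difference of -0.75. Over all genes 7.65% were lower and 7.95% higher. MCM3 and MCM7 are subunits of the helicase that unwinds origins, GINS2 belongs to the complex that activates it, and BRCA1 acts in repair by homologous recombination. MCM3 ranged from -3.33 to 0.95 in A431 and from -4.99 to -0.20 in SCC13, so the groups overlapped, and 6 SCC13 tumors lay below every A431 tumor. Its difference was -2.25 ± 0.65 (SE; adjusted p = 0.015), and those of MCM7, BRCA1 and GINS2 were -2.10, -2.09 and -1.91. Members of this list were at the floor in a median of 12 SCC13 tumors. Of the 58 genes at the floor in more than 8 SCC13 tumors, 21 were lower. In SD units 1 of the 9, BRCA1, was lower (-0.92, adjusted p = 0.047). Leaving out A431 tumor 2 ended the BRCA1 call (adjusted p = 0.053), A431 tumors 3 or 5 the MCM7 call (0.053 and 0.061), and any of 5 tumors the GINS2 call (highest 0.098, without A431 tumor 4). DUT and TYMS, which guard and supply the thymidine pool, did not pass (adjusted p = 0.064 and 0.8). The 4 measured genes of thymidine and dNTP supply gave 0 calls, but on the deposited scale DUT was lower (-3.35, limma adjusted p = 0.0016).

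Of 23 mitosis genes, 3 were lower (CCNB1, KPNA2 and TUBA1C), 1 was higher (BIRC5) and 19 did not pass, beside 7.65% lower and 7.95% higher over all genes. The balance turned with the scale: in SD units 1 was lower (TUBA1C) and 4 were higher (BIRC5, TUBB, SMC4 and PLK1), on ranks 2 and 4, and on the deposited scale 10 and 0. CCNB1 encodes cyclin B1, the activator of CDK1 at mitotic entry, and its knockout fell in both lines, to -0.99 ± 0.87 (n = 8) in A431 and to -3.27 ± 1.51 (n = 16) in SCC13. TUBA1C, an alpha-tubulin, stood between -0.21 and 1.23 in A431 tumors and between -4.31 and 2.09 in SCC13, with 12 of 16 below every A431 tumor. It differed by -2.25 (adjusted p = 0.022) and by -1.34 in SD units (adjusted p = 0.0047). KPNA2, a nuclear import receptor, differed by -2.10, but by -0.37 with the 4 SCC13 tumors of few floor values (adjusted p = 0.61). The list's median was -0.26 in log units and 0.13 in SD units.

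Of 3 measured genes of ribosome and translation, 2 were lower: PABPC1, the poly(A)-binding protein, and YBX1, an mRNA-binding protein. Of all genes 7.65% were lower, and these 3 were at the floor in a median of 13 SCC13 tumors. PABPC1 stood between -0.95 and 1.00 in A431 tumors and between -8.49 and -0.11 in SCC13, with 15 of 16 below every A431 tumor, a difference of -2.99 ± 0.70 (SE; adjusted p = 0.0027). YBX1 differed by -2.67 in log units and by -0.88 in SD units, where it did not pass (adjusted p = 0.074). The third, GNB2L1 (now RACK1), a scaffold of the small ribosomal subunit, fell in SCC13 at -2.87 and stood at -1.15 in A431, a difference of -1.72 that did not pass (adjusted p = 0.064). On the deposited scale GNB2L1 was lower too (-3.06, limma adjusted p = 0.0011). BTF3, a subunit of the nascent polypeptide-associated complex, differed by -2.65.

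SLC2A1 encodes GLUT1, the main glucose transporter of many carcinoma cells. In A431 tumors its knockout lay between -0.82 and 0.88, above the median gene in 7 of 8, and in SCC13 tumors between -4.49 and 0.94, below it in 15 of 16. The difference was -2.84, with an interval of -4.10 to -1.59 (limma adjusted p = 0.0016). It passed in SD units (-1.41), on ranks and with the 4 SCC13 tumors of few floor values (-2.41). PKM, pyruvate kinase of glycolysis, fell in both lines (-1.04 ± 0.58 and -2.88 ± 1.31), differed by -1.84 and lost its call without any 1 of 4 A431 tumors (highest adjusted p = 0.066, without tumor 4). DDIT4, a stress-induced inhibitor of mTORC1, rose in A431 (1.03) and stood at -0.49 in SCC13. Its difference of -1.52 did not pass relative to the median gene (adjusted p = 0.14). It passed in SD units (-1.38, adjusted p = 0.0054) and on the deposited scale (-2.86, limma adjusted p = 0.0026). ADM, the hypoxia-induced peptide adrenomedullin, went the opposite way. Of the 5 hypoxia and glycolysis genes measured, 2 were lower and 1 higher, beside 7.65% and 7.95% of all genes, with a median of -1.52.

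ADM knockouts ranged from -0.02 to 1.35 in A431 tumors and from 0.57 to 9.06 in SCC13, where 15 of 16 lay above every A431 tumor. The gene rose in both lines, to 0.57 ± 0.38 and 4.72 ± 2.73, and the difference of 4.15 had an interval of 2.56 to 5.75 (limma adjusted p = 0.0004). It was the top gene in 2 SCC13 tumors. In SD units it differed by 1.47 (adjusted p = 0.01).

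**Figure D3:**
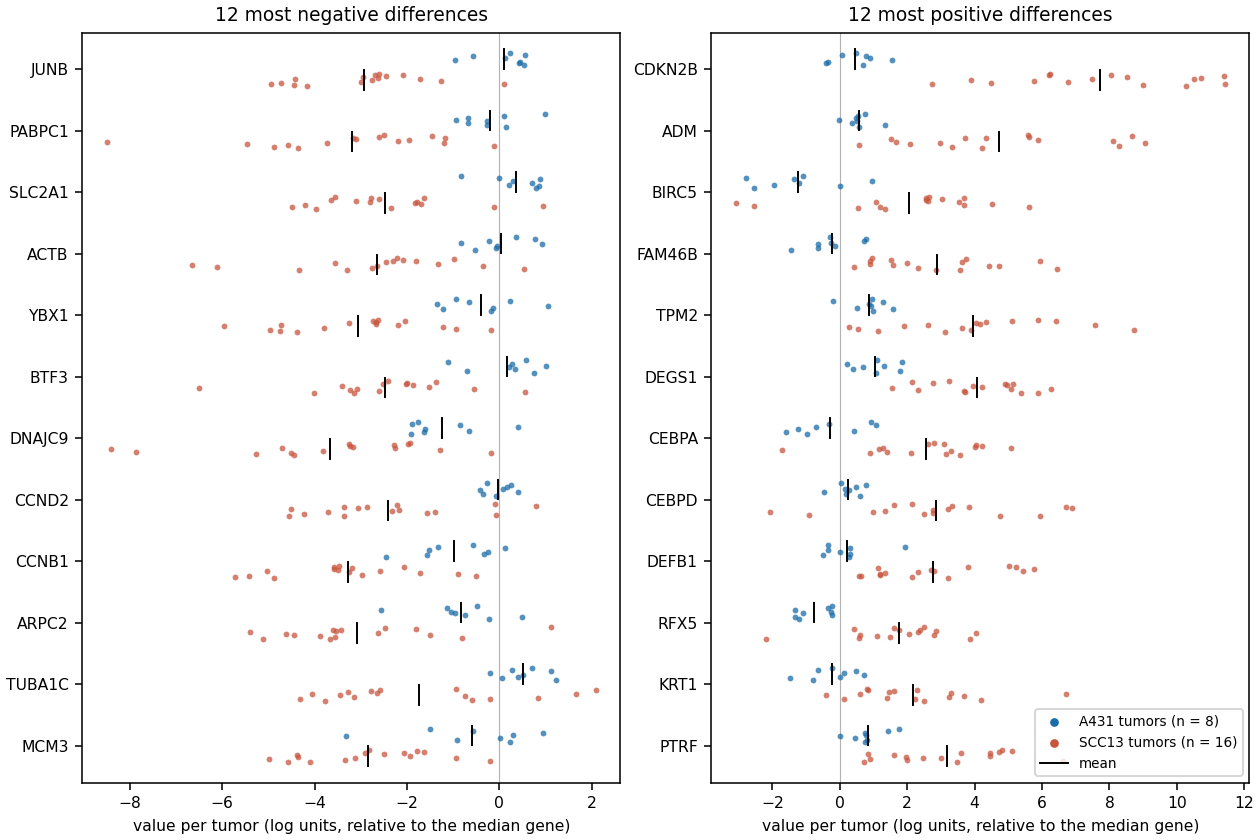
Points are tumors (A431 blue, n = 8; SCC13 red, n = 16) and black bars are means, in log units relative to the median gene, for the 12 most negative and the 12 most positive differences among genes past the threshold. Among the negative genes the A431 means lie between -0.60 and 0.51 except in DNAJC9, CCNB1 and ARPC2, and CDKN2B is the 1 gene of the 24 whose groups do not overlap.

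Actin genes split. Of 13 measured genes of actin and contractile fibers, 2 were lower (ACTB and ARPC2) and 2 were higher (TPM2 and CALD1), beside 7.65% and 7.95% of all genes. The median difference was -0.43 in log units and 0.18 in SD units, where 1 was lower (ACTB) and 0 higher. ACTB, cytoplasmic beta-actin, lay between -0.82 and 0.92 in A431 tumors and between -6.66 and 0.54 in SCC13, where all 16 values were at the floor. Its difference was -2.69 ± 0.68 (SE; adjusted p = 0.0047). ARPC2, a core subunit of the Arp2/3 complex that branches actin, fell in both lines (-0.83 and -3.09) and differed by -2.25, which in SD units was -0.37 (adjusted p = 0.51). The tropomyosin TPM2, which coats actin filaments, rose in both lines, to 0.86 ± 0.53 and 3.96 ± 2.41, a difference of 3.10 that did not pass in SD units (0.79, adjusted p = 0.17). CALD1, caldesmon, differed by 1.96 and lost its call without any 1 of 6 A431 tumors (highest adjusted p = 0.057). In 4 tumors the value of TPM2 equalled that of another gene to 6 decimals.

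Among chromatin genes, 2 of 8 in the histone and architecture list and 1 of 6 enzymes were lower, beside 7.65% over all genes, and 0 were higher. DNAJC9, a histone co-chaperone, was the lowest gene of SCC13 by mean, at -3.66 ± 2.21, and fell to -1.24 ± 0.81 in A431, a difference of -2.42 that ended without A431 tumor 5 (adjusted p = 0.051). DEK, a chromatin architecture protein, differed by -2.05. Neither passed in SD units (adjusted p = 0.85 and 0.055). DNMT1, the maintenance DNA methyltransferase, fell in both lines (-1.57 ± 0.89 and -3.53 ± 1.62). It differed by -1.97, by 0.16 in SD units, where the sign turned (adjusted p = 0.83), and lost its call without any 1 of 5 tumors (highest 0.076, without A431 tumor 3). USF2, PTMA and PTHLH were also lower (-2.18, -2.05 and -1.89). Calls were lost without any 1 of 5 tumors for USF2 (highest adjusted p = 0.058), without A431 tumor 7 for PTMA (0.053) and without any 1 of 12 tumors for PTHLH (0.11).

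By count, keratinocyte differentiation held the most higher genes of the 24 lists, of which it and mitosis were the longest. Of 23 measured genes, 6 were higher in SCC13 (DEGS1, DEFB1, KRT1, GRHL1, CALML3 and LY6D), 1 was lower (FABP5) and 16 did not pass; 18 of 23 differences were positive, with a median of 0.83 in log units and 0.25 in SD units, beside 0.05 and 0.07 over all genes. Over all genes 7.95% were higher. Members of the list were at the floor in a median of 0 SCC13 tumors, and of the 105 genes never at the floor 23 were higher. In SD units and on ranks KRT1 was the 1 gene of the 23 called, and on the deposited scale 4 were lower and 1, DEGS1, was higher. DEGS1, a desaturase that makes ceramides, a lipid of the skin barrier, rose in both lines. Its values ran from 0.21 to 1.83 in A431 tumors and from 1.54 to 6.26 in SCC13, with 15 of 16 above every A431 tumor. The difference was 3.02, with an interval of 1.78 to 4.26 (limma adjusted p = 0.00071), and 0.58 in SD units (adjusted p = 0.2). KRT1, the keratin of suprabasal cells, ran from -1.47 to 0.73 in A431 and from -0.42 to 6.72 in SCC13, and its difference of 2.38 also passed in SD units (1.13, adjusted p = 0.014). DEFB1, an antimicrobial defensin, differed by 2.58, CALML3, a calmodulin-like protein, by 1.96 and GRHL1, a grainyhead factor of the epidermis, by 1.99. In SD units these did not pass, at 0.96 (adjusted p = 0.051), 0.14 (0.83) and 0.65 (0.21). On ranks the difference of CALML3 was -0.13 (adjusted p = 0.82), a turn of sign. Leaving out any 1 of 10 tumors ended the GRHL1 call (highest adjusted p = 0.084, without A431 tumor 7), any of 5 that of LY6D (0.079, without A431 tumor 2) and any of 6 that of FABP5 (0.085, without A431 tumor 6).

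Regulators of squamous fate and other transcription factors held further higher genes. CEBPA and CEBPD encode C/EBP factors that act in keratinocyte differentiation. CEBPA ranged from -1.58 to 1.08 in A431 tumors and from -1.72 to 5.08 in SCC13, with 14 of 16 above every A431 tumor and SCC13 tumor 7 the lowest. It differed by 2.86 ± 0.66 (SE; adjusted p = 0.0025) and by 1.32 in SD units (adjusted p = 0.0067). CEBPD differed by 2.61 ± 0.76, with SCC13 values between -2.06 and 6.89, and by 1.01 in SD units, where it did not pass (adjusted p = 0.053). Of 6 measured squamous fate regulators, 2 were higher (GRHL1 and CEBPD), beside 7.95% of all genes, and all 6 differences were positive in log units. In SD units 1 of the 6 was higher (TP63) and 1 lower (NOTCH3), and on the deposited scale 0 were called. In the list of KLF, ETS and other factors 3 of 11 were higher: KLF7, REST, a repressor of neuronal genes (2.16), and CEBPD. The 1 lower member was YBX1, and in SD units REST was the 1 member called (0.97, adjusted p = 0.034). KLF7 rose in both lines (0.62 and 2.54) and differed by 1.93 in log units and 0.36 in SD units (adjusted p = 0.48). IRF3, a factor of the interferon response, differed by 1.96, and its call ended without any 1 of 12 tumors (highest adjusted p = 0.086, without A431 tumor 5).

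Of 9 keratins, KRT1 and KRT6A were higher, beside 7.95% of all genes, and the median difference was 0.77 in log units and -0.01 in SD units. KRT6A, a keratin of wounded and fast-dividing epithelium, differed by 2.18 and by 0.53 in SD units (adjusted p = 0.29), and its call ended without A431 tumor 5 (adjusted p = 0.053). Of 14 junction genes 1 was higher, GJB2, the gap junction protein connexin 26 (2.11). That call ended without any 1 of 5 A431 tumors (highest adjusted p = 0.056).

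Invasive-front and mesenchymal markers were higher for 5 of 14 genes (VIM, TPM2, CALD1, TNFRSF12A and INHBA) and lower for 1 (PTHLH), with 13 of 14 differences positive and a median of 0.95 in log units and 0.34 in SD units. Over all genes 7.95% were higher and 7.65% lower. In SD units and on ranks TNFRSF12A was the 1 gene of the 14 called, and on the deposited scale 0 were higher and 1 was lower. VIM, the intermediate filament vimentin, ranged from -0.60 to 1.87 in A431 tumors and from 0.01 to 5.52 in SCC13, with 12 of 16 above every A431 tumor. It differed by 2.23 (adjusted p = 0.015) and by 0.62 in SD units (adjusted p = 0.19). TNFRSF12A, the receptor of the cytokine TWEAK, lay between -0.37 and 0.13 in A431 tumors and between 0.44 and 5.51 in SCC13, without overlap. Its difference was 1.96 in log units and 0.88 in SD units, past the threshold in each (adjusted p = 0.022 and 0.037). INHBA, a subunit of activin A, differed by 2.05, and the call ended without any 1 of 8 tumors (highest adjusted p = 0.084, without A431 tumor 7). PTRF (now CAVIN1), which shapes caveolae, rose in both lines (0.84 and 3.17) and differed by 2.33. CAV1, the caveolin coat protein, rose in both as well (0.75 and 1.81), and its difference of 1.06 did not pass (adjusted p = 0.28). FAM46B (now TENT5B), a poly(A) polymerase, stood at -0.24 ± 0.74 in A431 and 2.87 ± 1.86 in SCC13. Its difference of 3.11 passed in log units (adjusted p = 0.0015) and in SD units (1.62, adjusted p = 0.00085).

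**Figure D4:**
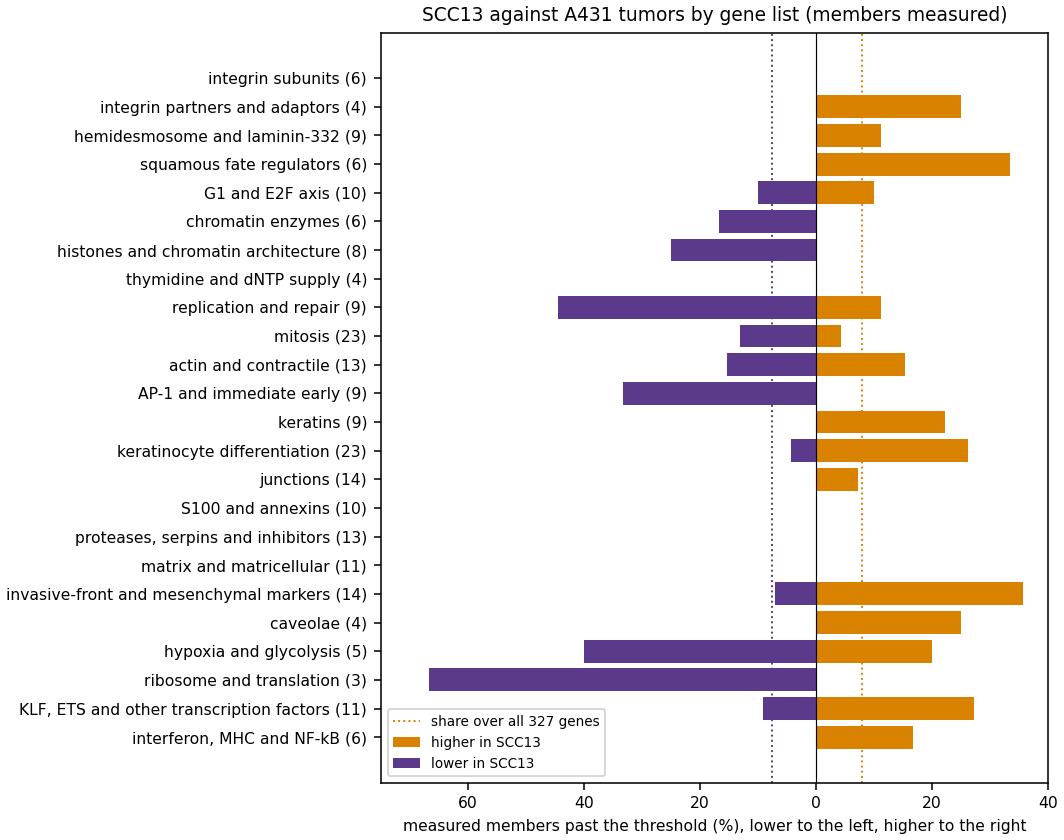
Bars give, for 24 gene lists with the number of measured genes in brackets, the percent of members past the threshold and lower in SCC13 (left, purple) or higher (right, orange); dotted lines mark 7.65% and 7.95% over all 327 genes. Lists of 3 to 6 genes reach high percentages with 1 or 2 genes, and the longest lists were mitosis and keratinocyte differentiation, with 23 genes each.

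Only BIRC5 and RFX5 passed the test with opposite signs in the 2 lines. RFX5, a subunit of the factor that drives MHC class II genes, stood below the median gene in 8 of 8 A431 tumors, from -1.35 to -0.23, and above it in 15 of 16 SCC13 tumors, from -2.18 to 4.05. The exception was SCC13 tumor 2, and no SCC13 value was at the floor. The means were -0.76 ± 0.53 and 1.76 ± 1.50, a difference of 2.52 with an interval of 1.25 to 3.78 (limma adjusted p = 0.0047). It passed in SD units (1.54), on ranks and with the 4 SCC13 tumors of few floor values (2.49), but not on the deposited scale (1.17, adjusted p = 0.15).

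BIRC5 encodes survivin, a subunit of the chromosomal passenger complex of mitosis and an inhibitor of apoptosis. It stood at -1.25 ± 1.26 in A431 tumors, from -2.78 to 0.96, and at 2.06 ± 2.31 in SCC13, from -3.08 to 5.61, a difference of 3.31 (adjusted p = 0.0022). In SCC13, 14 of its 16 values were at the floor, and those averaged 2.00, so that a positive value there does not show a gain. The lowest SCC13 values, -2.54 and -3.08, were those of tumors 5 and 8, the 2 tumors with the fewest genes at the floor. Both were floor values too. With the 4 SCC13 tumors of few floor values the difference was 0.41 (adjusted p = 0.74), and on the deposited scale it was 1.97 (0.055). The count of genes with opposed signs fell to 0 without A431 tumor 1 or A431 tumor 4 and to 1 without A431 tumors 2, 3 or 7.

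PCNA, the sliding clamp of replication, TUBB, a beta-tubulin, and the tetraspanin CD151, a partner of laminin-binding integrins, fell in A431 tumors and stood near the median gene in SCC13. PCNA was at -1.93 ± 1.86 and 0.19 ± 1.46, a difference of 2.11 (adjusted p = 0.026) that ended without A431 tumors 2, 4, 6 or 7 (highest 0.092). TUBB was at -1.95 ± 1.04 and -0.02 ± 2.01, a difference of 1.93 that did not pass (adjusted p = 0.051). For both genes the SCC13 floor values averaged above 0 (0.67 over 6 tumors for PCNA and 0.25 over 13 tumors for TUBB). With the 4 SCC13 tumors of few floor values they differed by 0.45 and -0.52 and did not pass. CD151 differed by 2.26 (adjusted p = 0.032), and 1 A431 tumor, tumor 2, stood at -8.22 with the next at -2.54. Without it the difference was 1.40 (adjusted p = 0.19), and the call also ended without A431 tumors 5 or 7 or SCC13 tumor 6 (0.059, 0.056 and 0.051).

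Knockouts of ITGB1, FERMT1 and EGFR fell in both lines, with differences that did not pass in log units relative to the median gene. On the deposited scale ITGB1 (-1.82, limma adjusted p = 0.044) and EGFR (-2.69, 0.0028) passed as lower in SCC13. FERMT1 did not pass there (-1.23, 0.2). ITGB1, the beta-1 integrin subunit, ranged from -3.51 to -0.78 in A431 tumors and from -4.71 to 0.18 in SCC13, and its difference was -0.47, with an interval of -1.75 to 0.81 (adjusted p = 0.7). FERMT1, the integrin activator kindlin-1, ranged from -3.11 to -0.67 and from -5.39 to 0.99, a difference of 0.11 with an interval of -1.28 to 1.50. EGFR ranged from -3.36 to -0.17 and from -5.31 to -0.23, a difference of -1.34 with an interval of -2.60 to -0.09 (adjusted p = 0.15). These intervals still hold differences of more than 1 log unit. ITGB1 was at the floor in 11 SCC13 tumors, EGFR in 11 and FERMT1 in 5. Of the 6 integrin subunits, 0 passed on the centred values, and 2 were lower on the deposited scale. On the centred values ITGAV differed by 1.52 (adjusted p = 0.14) and ITGB4, the hemidesmosome subunit, by 1.77 (adjusted p = 0.057).

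Relative to each tumor's spread, the values of ITGB1, FERMT1 and TP63 stood deeper in A431. ITGB1 was at the floor in most SCC13 tumors, and FERMT1 and TP63 were in some. Such SCC13 values are bounds, so places and SD units cannot show that the loss was shallower in SCC13. On the deposited scale ITGB1 was lower in SCC13 (-1.82, limma adjusted p = 0.044), and FERMT1 and TP63 did not pass. ITGB1 had the second lowest mean of 327 genes in A431 and place 14 in SCC13, FERMT1 had places 6 and 37, and TP63, the gene of p63, had places 1 and 35. In SD units the differences were 1.32 for ITGB1, where the sign turned (adjusted p = 0.0024), 1.34 for FERMT1 (0.0026) and 1.95 for TP63 (0.00041). On ranks all 3 passed as well, at 0.88, 0.96 and 1.12. In log units TP63 differed by 0.91, with an interval of -0.44 to 2.26. EGFR, at places 12 and 6, did not pass in SD units (0.55, adjusted p = 0.31).

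At the opposite end, SMARCA4, whose ATPase drives the SWI/SNF complex on chromatin, and the receptor NOTCH3 had the 2 highest means in A431 and places 101 and 41 from the top in SCC13. SMARCA4 ranged from 0.87 to 2.72 in A431 tumors and from -2.30 to 4.90 in SCC13, where 9 of 16 lay below every A431 tumor. Its difference was -1.27, with an interval of -2.60 to 0.06, and -1.93 in SD units (adjusted p = 3.5e-05). On the deposited scale SMARCA4 was lower in SCC13 as well (-2.61, limma adjusted p = 0.0025). NOTCH3, which restrains growth and promotes differentiation in keratinocytes, rose in both lines by nearly equal amounts (1.66 ± 0.68 and 1.72 ± 1.71), a difference of 0.06 with an interval of -1.26 to 1.37. In SD units it was -1.21 (adjusted p = 0.0076) and on ranks -1.51, a turn of sign. EZH2, the histone methyltransferase of the Polycomb complex, stood at -0.90 ± 0.69 and -0.98 ± 2.11, a difference of -0.08 with an interval of -1.50 to 1.34, beside a CAL27 mean of 2.31 ± 1.07. MYC differed by -0.36, with an interval of -1.72 to 0.99.

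**Figure D5:**
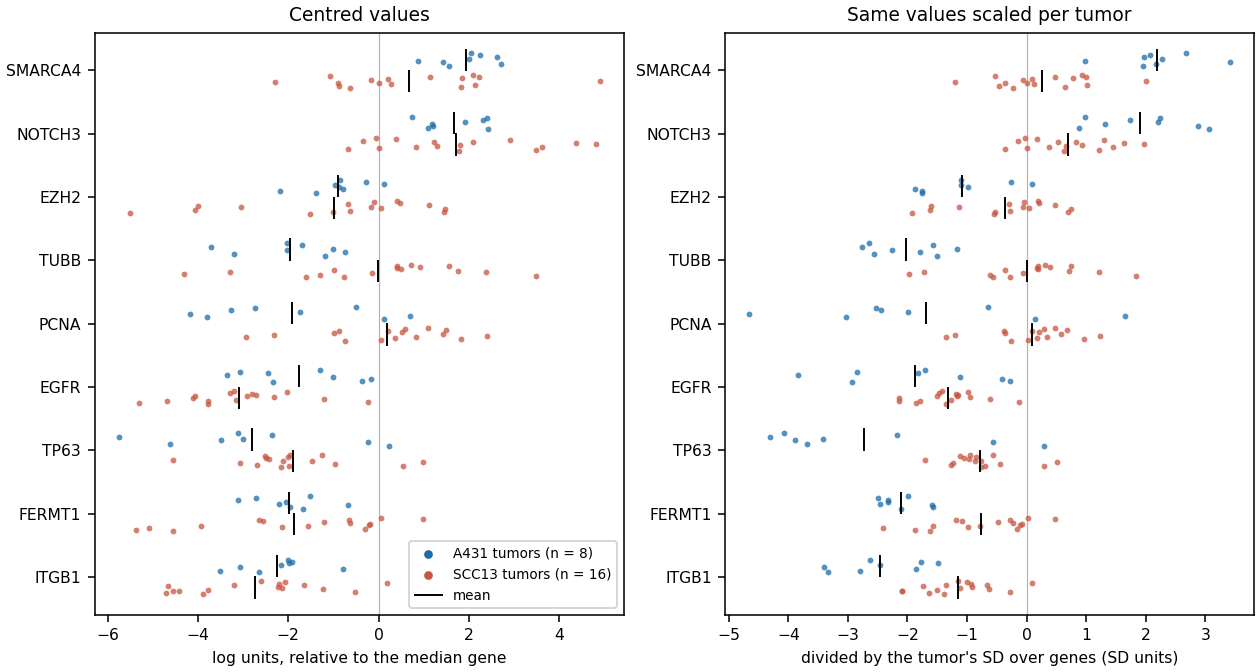
Points are tumors (A431 blue, n = 8; SCC13 red, n = 16) and bars are means for 9 genes, in log units relative to the median gene (left) and divided by each tumor's SD over genes (right). ITGB1 and NOTCH3 differ by -0.47 and 0.06 on the left and by 1.32 and -1.21 on the right, where the tumors of the lines still overlap.

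Of the 24 genes that fell in both lines, the smallest differences belonged to FERMT1, RANBP1, UBE2C, CENPF and YWHAZ. RANBP1, a regulator of nuclear transport, differed by -0.24, UBE2C, a ubiquitin-conjugating enzyme of the anaphase-promoting complex, by -0.25 and the kinetochore protein CENPF by -0.26. YWHAZ, a 14-3-3 adaptor, differed by -0.35. Of the 15 that rose in both, NOTCH3, E2F8 (0.43), KRT6B (0.58), CAV1 (1.06) and the ETS repressor ERF (1.08) differed least. E2F8 encodes an E2F repressor of the cell cycle. The SEs of these 10 differences were 0.62 to 0.79 log units.

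Several lists showed 0 calls or 1. The 13 protease and inhibitor genes, the 11 matrix genes and the 10 S100 and annexin genes gave 0 calls, with medians of -0.05, 0.38 and 0.67. On the deposited scale 4, 2 and 3 of them were lower. The largest differences in them were 1.63 for TIMP3, an inhibitor of metalloproteases (adjusted p = 0.069), 1.43 for CYR61, now CCN1 (0.18), and -1.54 for S100A2 (0.092). Of the 9 hemidesmosome and laminin genes CD151 was the 1 called, as it was among the 4 integrin partners. The interferon, MHC and NF-kB list had 1 of 6 (IRF3), with RELA, the p65 subunit of NF-kB, at a difference of 1.41 that passed in SD units (1.20, adjusted p = 0.0069) and not in log units (0.15).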

How the data were processed

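Guide abundance was measured in 16 SCC13 and 8 A431 tumors. The authors deposited, without read counts, 1 log fold change per gene and tumor, relative to the non-targeting guides; the log base, pseudocount, guide summary and build are not stated there, so these values have no stated unit other than a log scale. Bowtie2 is named in the submitters' processing notes, without a version. Depth is unknown, and the error of the initial cells is in none of the tests. The direction is not written in the files. Negative values were taken as loss, which was not tested.

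From the deposited values, each tumor was centred on its median over 327 genes, and SCC13 was compared with A431 in 1 fit with limma 3.58.1 in R 4.3.3 (lmFit, eBayes, 1 spread per gene for both lines) with Benjamini-Hochberg adjustment over all genes at 0.05; SEs and 95% intervals come from this fit. The code was tested on simulated data. Value columns carry no replicate numbers, so their order names a tumor and no more. A value was at the floor where, in a pair of tumors, it belonged to the largest set of at least 4 genes that differed by exactly 1 amount (6 decimals). Files of CAL27 tumors gave side values, and files of cultures were not used here.

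The tumors, 26 gene lists (24 with at least 3 measured genes) and tests were chosen with earlier results of these data known. The genes named were the 12 lowest and 12 highest differences, genes with opposed signs, up to 4 members per list with the smallest adjusted p, 12 set genes (such as CDKN2B, ITGB1 and EGFR) and the 5 nearest to no difference among genes that fell, and among those that rose, in both lines, 104 genes in all. The 7 called genes FABP5, GINS2, INHBA, LY6D, PTHLH, PTMA and USF2, and SD-unit results outside this rule, were named after their values were seen. Current symbols are from RefSeq. Alternatives were other centring, scaling by SD, ranks, spread per line, weights, 3 lines in 1 fit, robust regression, an exact permutation test, handling of floor and shared values, and each tumor left out in turn.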

Additional observations from a re-analysis of the deposited data

Results flagged for a closer look

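In A431, 7 of the named genes had 1 tumor standing apart from the other 7 by a gap test, which chance alone passes in about 1 in 20 groups; over all 327 genes 23 did. A431 tumor 2 stood at -8.22 for CD151, with the next tumor at -2.54. A431 tumor 6 stood apart in 4 genes: DUT at -6.29 (next -1.66), IFITM3, an interferon-induced membrane protein, at -3.21 (next -1.25), HELLS, a chromatin remodeller, at 1.93 (next 0.41), and KLF7 at 1.43 (next 0.70). A431 tumor 7 stood apart in 2 genes, DEFB1 at 1.93 (next 0.31) and GRHL1 at -0.96 (next 0.00). Without these tumors the calls for DEFB1 and KLF7 stayed past the threshold, and those for CD151 and GRHL1 did not.

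The difference between the lines was tested and past the threshold for both genes with opposed signs, BIRC5 (3.31) and RFX5 (2.52). In BIRC5, 14 of 16 SCC13 values were at the floor, and in RFX5 none was.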

How the results depend on the processing

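No paired analysis was possible because the value columns carry no replicate numbers and the lines are different cells; a replicate block could not be fitted. The numbers of genes lower and higher in SCC13 were 25 and 26. They were 102 and 3 on the deposited scale, 82 and 7 with centring on the upper quartile (chosen after seeing the data), 13 and 19 in SD units, 46 and 51 with a spread per line, 44 and 49 with weights by line, and 42 and 55 with robust regression. Without floor values they were 11 and 34 (322 genes), with the 4 SCC13 tumors of few floor values 53 and 16 (22 of the 25 and 6 of the 26 kept), and without the genes at the floor in more than 8 SCC13 tumors 2 and 21 (269 genes, chosen after seeing the data). Ranks (19 and 20), 3 lines in 1 fit (35 and 34), the exact permutation test (23 and 20) and leaving out genes that share values (23 and 22) stayed within 1.5 times. Leaving out 1 tumor gave 16 to 33 lower and 18 to 33 higher genes, the fewest without A431 tumor 5; 13 of the 25 and 17 of the 26 were called each time. Genes with opposed signs numbered 2. They numbered 1 on the deposited scale, 4 on ranks and 1 without floor values. With the 4 SCC13 tumors they numbered 0, without the genes mostly at the floor 1, and with 1 tumor left out 0 to 2. The 1 gene on the deposited scale was neither BIRC5 nor RFX5, whose differences did not pass there (limma adjusted p = 0.055 and 0.15). A turn of sign was counted where the gene passed in the main fit or in the alternative. In SD units these were DNMT1 (0.16), ITGB1 (1.32) and NOTCH3 (-1.21). On ranks they were CALML3 (-0.13), ITGB1 (0.88) and NOTCH3 (-1.51). Over the 104 named genes and all settings, 3410 values kept their side of the threshold, 203 no longer passed, 185 newly passed and 6 turned sign by that count. Differences that passed in neither fit are among the 3410 even where their sign turned, as for EGFR in SD units (0.55). Dividing by a tumor's SD removes the lines' difference in spread by construction; the cause of the other changes was not tested. With no read counts, the depth behind a value and its precision are unknown.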

Other observations

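Single tumors of the 2 lines differed in their highest and lowest knockouts. In 13 of 16 SCC13 tumors at least 1 gene stood above 5 log units, and in 0 of 8 A431 tumors. Apart from CDKN2B, the top gene was ADM in 2 SCC13 tumors, HDAC1 in 1 and VSNL1 in 1. In A431 the top gene was SMARCA4 in 3 tumors, NOTCH3 in 2, and CXCL14, DDIT4 or S100A14 in 1 each, and the lowest gene was a different one in each of the 8 tumors.

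Across genes, pairs of A431 tumors had a mean Pearson correlation of 0.40 and pairs of SCC13 tumors of 0.39, whereas the 128 pairs of an A431 with an SCC13 tumor had a mean of 0.24, with a range of -0.01 to 0.45. Tumors of a line share their initial cells, and genes are not independent replicates.

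In SD units, 3 genes with no other values given here passed the test and were named after their values were seen: SMC4, a condensin subunit (1.73), PLK1, a mitotic kinase (1.55), and JUP, a desmosomal plaque protein (-0.90).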
